A study of Mus musculus with 24 samples.

Results

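Libraries labelled B cells were compared with those of hematopoietic stem and progenitor cells (HSPCs), the cells from which all blood lineages descend, both from 2 weeks after transplantation. The comparison holds 8 of the 24 RNA-seq libraries of the series, 4 of B cells and 4 of HSPCs, chosen by their labelled cell type and time. They are 2 libraries of Srcap mutant B cells, 2 of wild-type (WT) B cells, 2 of Srcap mutant HSPCs and 2 of WT HSPCs, so each cell type holds both genotypes equally. All come from mice of the C57BL6/J strain after transplantation, with no further treatment named. The labels give neither the age nor the sex of the mice, nor whether donor or host cells were sorted. Srcap encodes the ATPase of a chromatin complex that exchanges histone H2A for the variant H2A.Z, and the series concerns clonal hematopoiesis and DNA repair. The labels do not describe the mutant allele of these libraries beyond its gene. The file headers call the HSPC libraries LSK, the usual name for lineage-negative cells that carry Sca-1 (encoded by Ly6a) and Kit. Kit and Ly6a may therefore have served in the sort and their levels describe it. How the B cells were sorted is not stated in the sources used here. The extraction text names 30000 sorted HSPCs for every sample, B cells included.

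B cells arise in the bone marrow from lymphoid-primed progenitors. The transcription factors EBF1 and PAX5 commit a cell to the lineage, the RAG recombinase joins the gene segments of the heavy chain, and the surrogate light chain made of VPREB and IGLL1 tests that chain in the pre-B receptor. Light chain joining then gives the B cell receptor, which signals through CD79A and CD79B, and surface proteins such as CD20 (Ms4a1), CD22 and CD23 (Fcer2a) come later in this maturation. HSPCs depend instead on receptors for stem cell factor (KIT) and other cytokines and on factors such as GATA2, MEIS1, MECOM and HLF.

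Promoter windows of 7 of 8 genes chosen for the contrast were found in RefSeq (mouse build GRCm38.p6), from 250 bases before to 50 bases after the transcription start, namely Cd79a, Vpreb1, Igll1, Pax5, Kit, Cd34 and Mpo, but not Cd79b. Of these, 4 are shown because the data below place their genes at 4 different points. Cd79a was far higher in B cells, Vpreb1 is of the same lineage but did not pass the test, Kit marks the progenitors and Mpo is a myeloid granule gene abundant in the HSPC libraries. Capitals mark matches on either strand to CAGGTG, an E box bound by E proteins such as TCF3, or to AGGAAG, an ETS core bound by factors such as SPI1 and ETS1.
Cd79a, chr7:24897247-24897546, plus strand: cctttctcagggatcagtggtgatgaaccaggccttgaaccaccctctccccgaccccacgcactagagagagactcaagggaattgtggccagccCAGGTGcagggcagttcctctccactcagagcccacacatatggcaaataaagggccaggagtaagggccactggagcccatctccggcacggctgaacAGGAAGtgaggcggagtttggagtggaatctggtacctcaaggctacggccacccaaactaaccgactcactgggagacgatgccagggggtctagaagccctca
Vpreb1, chr16:16869206-16869505, minus strand: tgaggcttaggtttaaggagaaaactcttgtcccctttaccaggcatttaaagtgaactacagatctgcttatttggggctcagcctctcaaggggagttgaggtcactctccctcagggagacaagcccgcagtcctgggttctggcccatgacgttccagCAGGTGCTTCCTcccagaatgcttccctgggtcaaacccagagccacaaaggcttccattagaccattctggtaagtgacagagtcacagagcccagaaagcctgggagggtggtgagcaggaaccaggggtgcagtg
Kit, chr5:75574737-75575036, plus strand: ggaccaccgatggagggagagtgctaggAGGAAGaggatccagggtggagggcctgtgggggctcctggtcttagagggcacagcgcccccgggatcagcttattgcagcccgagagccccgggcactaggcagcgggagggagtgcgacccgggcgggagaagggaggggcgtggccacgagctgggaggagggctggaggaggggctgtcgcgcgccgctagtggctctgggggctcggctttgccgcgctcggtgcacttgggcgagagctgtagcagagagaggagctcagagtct
Mpo, chr11:87793534-87793833, plus strand: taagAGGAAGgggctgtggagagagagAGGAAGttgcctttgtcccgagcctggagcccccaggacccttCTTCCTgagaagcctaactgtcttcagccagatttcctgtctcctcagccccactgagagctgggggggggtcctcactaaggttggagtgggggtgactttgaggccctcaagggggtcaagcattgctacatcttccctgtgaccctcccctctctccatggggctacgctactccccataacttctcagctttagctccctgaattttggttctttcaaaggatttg
The Cd79a window held an E box 154 bases and an ETS core 55 bases before the start, and the Vpreb1 window held both directly beside each other, 88 and 82 bases before it. The Kit window held 1 ETS core and the Mpo window 3. No match to the EBF motif, the GATA motif AGATAA or the RUNX motif TGTGGT lay in these 4. Among 27025 promoter windows of 300 bases, 20.0% held the E box, 35.1% the ETS core, 16.9% the RUNX motif, 11.4% the GATA motif and 0.914% the EBF motif, which makes the E box and the ETS core common. The shares among genes that changed were not compared, because windows could be matched by symbol to only 64.1% of the genes tested.

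Values are fragments counted per gene, given as CPM, the count scaled to a library total of 1e6. The totals, in multiples of 1e6 fragments, ran from 49.0 to 51.4 in the B cell libraries and from 26.4 to 49.8 in the HSPC libraries. CPM are not corrected for transcript length and compare one gene between libraries. The 2 mutant HSPC libraries were the least alike of the 4 replicate pairs, with 1117 genes more than 2-fold apart, against 375 between the mutant B cell libraries, 313 between the WT ones and 253 between the WT HSPC libraries. The labels call each sample independent but name no animals, so p-values measure the spread between these samples, which may be technical.

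The marker genes Cd79a, Kit and Cd34 followed the labels. Ly6a, the other gene behind the name LSK, differed far less and is given below with the surface genes. Cd79a (ENSMUSG00000003379.8, GRCm39 chromosome 7, 24596806 to 24601622) stood at 1034 and 1352 CPM in mutant B cells and 1033 and 1165 CPM in WT B cells, against 149 and 115 CPM in mutant HSPCs and 48.6 and 86.7 CPM in WT HSPCs. The groups did not overlap, but the HSPC libraries were far from 0 and 3.07-fold apart at their extremes. Kit (ENSMUSG00000005672.13, chromosome 5, 75735576 to 75817382) stood at 5.93 and 3.74 CPM in mutant B cells and 5.798 and 4.68 CPM in WT B cells, against 338 and 385 CPM in mutant HSPCs and 403 and 363 CPM in WT HSPCs. Cd34, a sialomucin of progenitors (ENSMUSG00000016494.10, chromosome 1, 194621127 to 194643587), stood at 2.18 and 1.35 CPM in mutant B cells and 3.499 and 3.16 CPM in WT B cells, against 418 and 552 CPM in mutant HSPCs and 626 and 590 CPM in WT HSPCs. No library of either cell type came near the other for Kit or Cd34. In a model with cell type and genotype, fitted by edgeR's quasi-likelihood test to all genes, the log2 fold changes of B cells over HSPCs were 3.68 ± 0.28 for Cd79a (SE, Benjamini-Hochberg adjusted p = 8.98e-06), -6.12 ± 0.16 for Kit (adjusted p = 3.67e-11) and -7.70 ± 0.20 for Cd34 (adjusted p = 8.10e-11). In such bulk samples, fewer cells of a type and less RNA per cell cannot be told apart.

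Srcap itself (ENSMUSG00000053877.13, chromosome 7, 127111155 to 127160391) was present in all 8 libraries, at 16.2 and 20.0 CPM in mutant B cells and 20.3 and 13.8 CPM in WT B cells, against 11.7 and 12.97 CPM in mutant HSPCs and 14.4 and 13.7 CPM in WT HSPCs. The cell types overlapped, and so did the genotypes within B cells. Within HSPCs both mutant libraries lay below both WT libraries, a difference that was not tested. Its log2 change of 0.51 ± 0.19 had an adjusted p of 0.0365 in edgeR, a call lost in 6 of the 8 leave-outs of 1 library, those of HSPC WT replicate 2 (0.53), both mutant HSPC libraries (0.46 and 0.49), B cell WT replicate 1 (0.42) and both mutant B cell libraries (0.54 and 0.41).

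**Figure D1:**
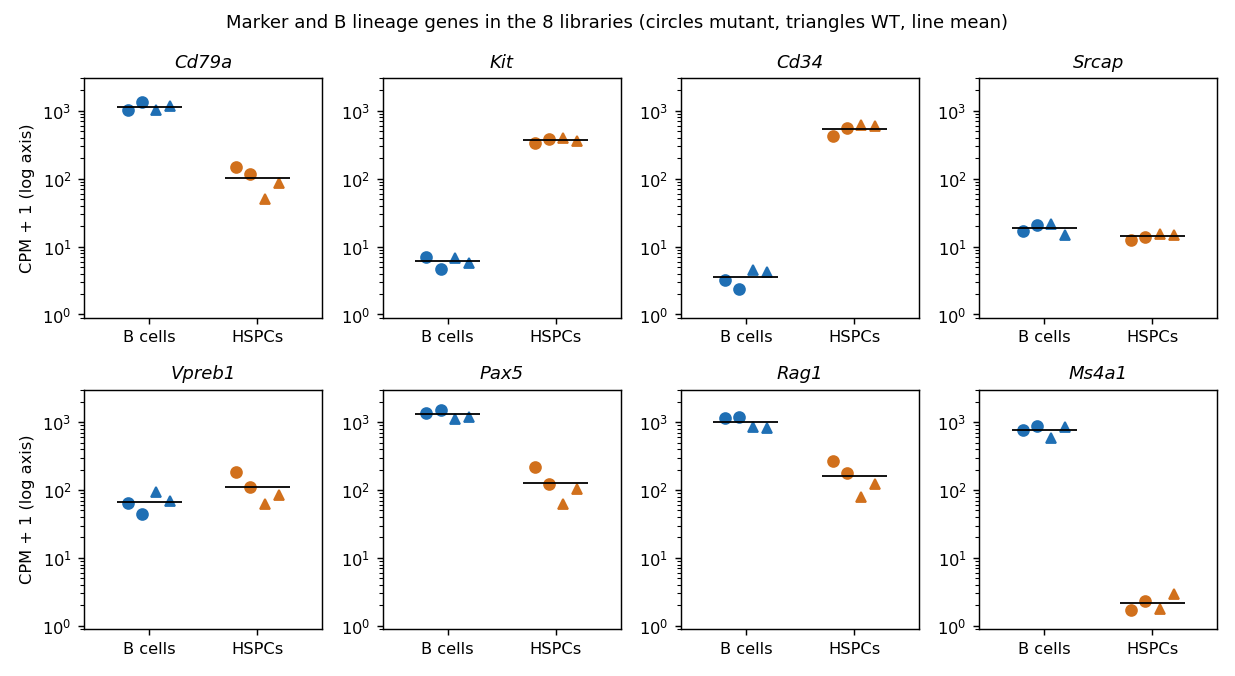
Levels of 8 genes as CPM + 1 on a log axis in each library, B cells on the left of each panel and HSPCs on the right, with circles for mutant and triangles for WT libraries and a line at the mean of 4. Cd79a, Pax5 and Rag1 were higher in B cells without being absent from HSPCs, Ms4a1 was at 0.723 to 1.98 CPM in HSPCs, and Vpreb1 overlapped.

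The cell types differed in most of the genes tested. Of 18203 genes tested, 9818 (53.9%) had an adjusted p under 0.05 in edgeR, 4853 (26.7%) higher and 4965 (27.3%) lower in B cells. With a fold change of at least 2 besides, 2970 (16.3%) were higher and 2952 (16.2%) lower. All 4 libraries of one cell type lay above all 4 of the other for 9477 genes (52.1%). The median log2 change over all genes was 0.01 and the median of its absolute value 0.949, and the counts of the gene groups below have to be read against this background.

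**Figure D2:**
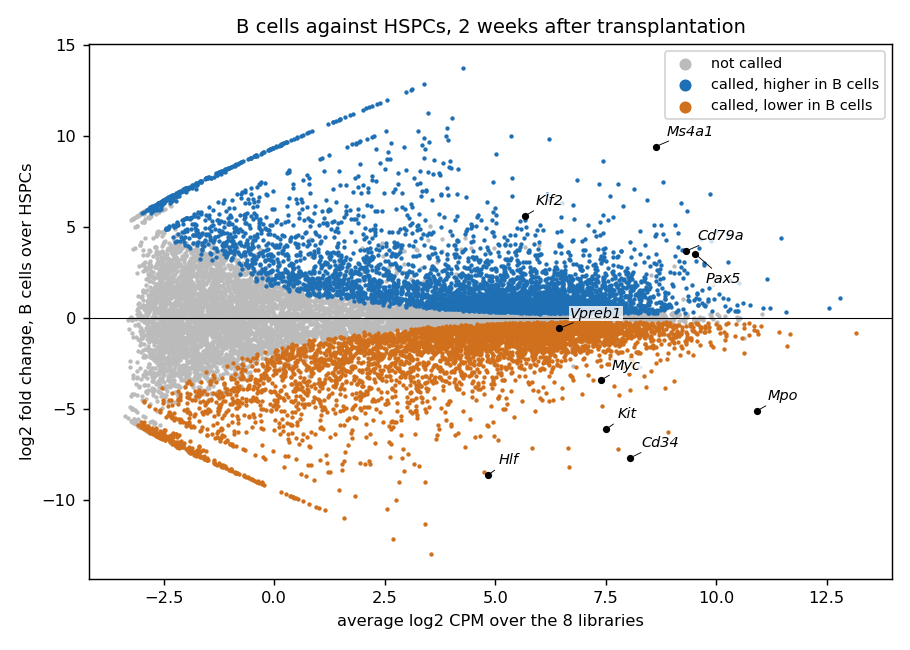
Log2 fold change of B cells over HSPCs against the average log2 CPM of the 8 libraries for the 18203 genes tested, blue for genes called higher in B cells, orange for those called lower and grey for the rest. Calls spread evenly over both directions, with 4853 higher and 4965 lower, and the straight edges at the left are genes with no count in one cell type, whose fitted change depends on the small count that edgeR adds.

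The largest changes among well-expressed genes included those of several mature B cell surface proteins upward. Downward they included the stem cell regulator Hlf and the progenitor surface genes Kit and Cd34, beside genes of other kinds in both directions. Of the 15 largest increases, with log2 changes between 6.69 and 9.84, 8 are established genes of B cells, namely Ms4a1 (CD20), Fcmr (the receptor for IgM), Fcer2a (CD23), Fcrla (an Fc receptor-like protein), Cd22 (an inhibitory co-receptor), Cd2, Cd40 (the receptor for T cell help) and the transcription factor Spib. Ms4a1 was at 758 and 871 CPM in mutant B cells and 589 and 860 CPM in WT B cells, against 0.723 and 1.29 CPM in mutant HSPCs and 0.772 and 1.98 CPM in WT HSPCs, a ratio of means of 646. Spib was the most abundant of the 15, with 1637 and 2183 CPM in mutant B cells and 1711 and 1625 CPM in WT B cells, against 17.8 and 23.02 CPM in mutant HSPCs and 12.4 and 16.5 CPM in WT HSPCs. Others were Srpk3 (a protein kinase, 9.84 ± 0.48), Col5a3, Egfl6, Klhl14, Adam19 and Cpm. Of these, Col5a3, a collagen chain, reached 434 and 384 CPM in mutant B cells and 225 and 307 CPM in WT B cells, against 0.121 and 0.986 CPM in mutant HSPCs and 1.09 and 1.55 CPM in WT HSPCs.

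Of the 15 largest decreases, with log2 changes between -8.65 and -5.96, Hlf led. It encodes a transcription factor of stem cells and was at 0.311 and 0 CPM in mutant B cells and 0.180 and 0.0393 CPM in WT B cells, against 53.7 and 61.2 CPM in mutant HSPCs and 57.3 and 61.4 CPM in WT HSPCs. Adgrl4, an adhesion receptor known from endothelium, was at 0.286 to 0.920 CPM in B cells and 142 to 236 CPM in HSPCs. The others were Mc5r, Cd34, Slc22a3, Muc13, Nwd1, Rab38, Mdga1, Smo (the signal transducer of the Hedgehog pathway), Afap1l1, Shank3, Pdgfrb, Kit and Nynrin. For each of these 30 genes the order also held against HSPC libraries that the comparison did not use. The B cell values are the same ones by which the genes were chosen, so this gives no independent support. All 15 increases stood above the highest, and all 15 decreases below the lowest, of the 12 other HSPC libraries of the series (untreated, doxorubicin-treated and 20 weeks after transplantation), which lie in other alignment directories and were set beside the B cells without a test. Fcer2a came closest among the increases, since the lowest B cell library held 43.0 CPM and those HSPC libraries reached 36.9 CPM.

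**Figure D3:**
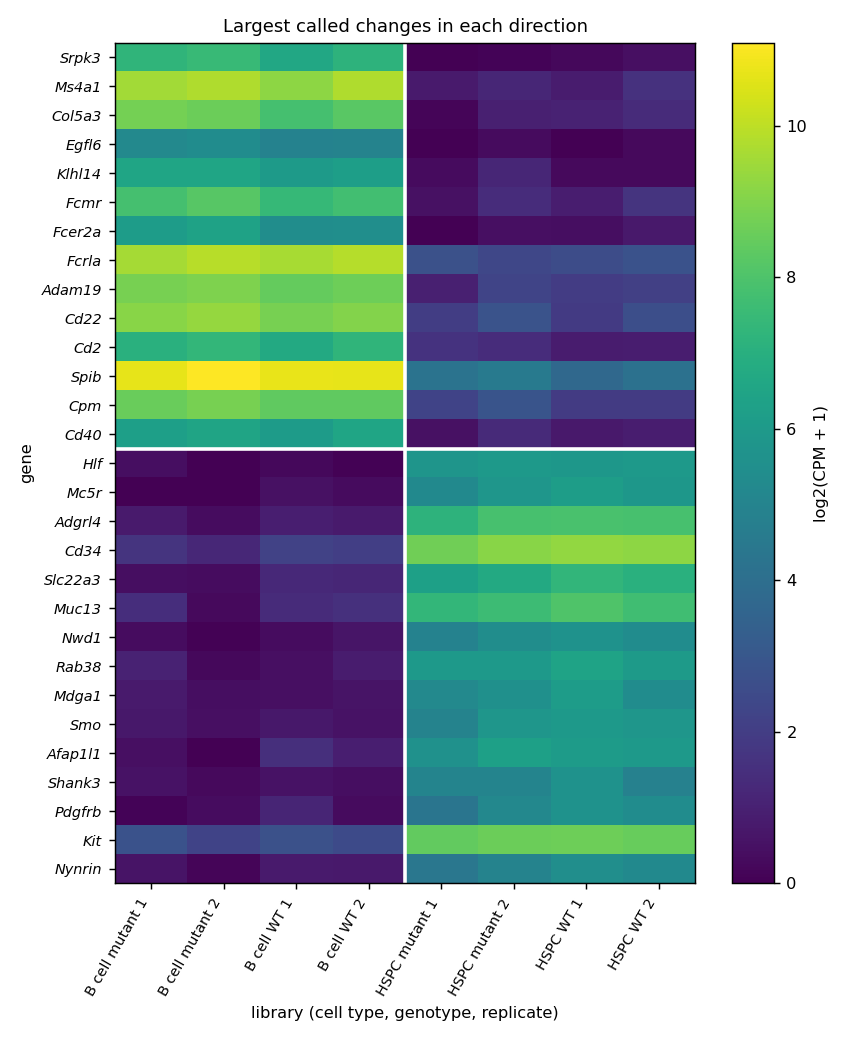
Levels as log2(CPM + 1) of 14 of the 15 called genes with the largest increase and of the 15 with the largest decrease, with the 4 B cell libraries in the left columns and the 4 HSPC libraries in the right. The upper 14 genes were brighter in all 4 B cell libraries and the lower 15 in all 4 HSPC libraries, as the choice of the genes required.

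Components of B cell receptor signalling were higher in B cells. Of 30 members, 26 were called higher and 3 lower, with a median log2 change of 2.64, against 26.7% and 27.3% of all genes and a median of 0.01. The signalling chains Cd79b (4.54 ± 0.19) and Cd79a (3.68 ± 0.28) belonged to these. Syk, the kinase that docks to phosphorylated CD79 chains, was at 2289 and 2529 CPM in mutant B cells and 1894 and 1872 CPM in WT B cells, against 266 and 283 CPM in mutant HSPCs and 266 and 262 CPM in WT HSPCs, with little spread in either cell type. The Src family kinase Blk (6.15 ± 0.20), the adaptor Bank1 (4.94 ± 0.15) and the inhibitory lectins Cd22 (7.07 ± 0.31), Cd72 (5.10 ± 0.15) and Siglecg (5.85 ± 0.14) had larger changes than the kinases Lyn (2.42 ± 0.10) and Btk (0.63 ± 0.11). The members called lower in B cells were Vav3 (-1.62 ± 0.14), the adaptor Dapp1 (-1.57 ± 0.14) and Cd81 (-0.83 ± 0.09), a tetraspanin. Fyn, a Src family kinase of many cell types, was at 58.4 to 72.7 CPM in B cells and 58.1 to 69.3 CPM in HSPCs, and its adjusted p was 0.570.

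Genes of the pre-B receptor and of V(D)J recombination were split. Of 15 members, 9 were called higher and 3 lower in B cells. Rag1 was at 1161 and 1189 CPM in mutant B cells and 841 and 812 CPM in WT B cells, against 269 and 177 CPM in mutant HSPCs and 78.3 and 121 CPM in WT HSPCs, a log2 change of 2.81 ± 0.21 (edgeR adjusted p = 2.45e-06). The receptor for the growth factor interleukin 7, Il7r (2.90 ± 0.20), and the end-joining genes Lig4 (3.07 ± 0.18), Dclre1c, which encodes Artemis (2.47 ± 0.15), and Xrcc6 (1.32 ± 0.10) were higher too. Xrcc5 (-1.33 ± 0.17), the partner of XRCC6 in the Ku dimer, and Prkdc (-0.52 ± 0.12) were lower. Dntt, the polymerase that adds untemplated bases to V(D)J junctions, stood at 41.3 and 33.2 CPM in mutant B cells and 105 and 66.3 CPM in WT B cells, against 1162 and 924 CPM in mutant HSPCs and 634 and 814 CPM in WT HSPCs. Its log2 change was -3.86 ± 0.46 with an adjusted p of 0.000690 in edgeR.

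The surrogate light chain genes did not pass the test. They and the further genes of this paragraph were chosen after their values were seen. Vpreb1, whose promoter is shown above, was at 62.8 and 42.8 CPM in mutant B cells and 93.4 and 67.5 CPM in WT B cells, against 182 and 109 CPM in mutant HSPCs and 61.5 and 83.4 CPM in WT HSPCs. The cell types overlapped, with an estimate of -0.57 ± 0.43 (edgeR adjusted p = 0.310). Igll1, its partner, was at 74.9 to 188 CPM in B cells and 89.7 to 308 CPM in HSPCs (-0.30 ± 0.50, adjusted p = 0.657). Vpreb2, which is nearly identical to Vpreb1 so that reads may be split between them, gave -0.67 ± 0.59 (edgeR adjusted p = 0.369). Vpreb3, which acts in assembling the B cell receptor, was called higher at 3.35 ± 0.24. For the 7 genes Vpreb1, Igll1, Rag1, Pax5, Ebf1, Cd79a and Cd79b the HSPC libraries had 1 order, lowest in WT replicate 1, then WT replicate 2 and mutant replicate 2, and highest in mutant replicate 1, between 2.01-fold and 3.72-fold above the lowest. Other genes high in B cells did not share this order. Ighm, Ms4a1 and Cd74 were lowest in mutant replicate 1 and highest in WT replicate 2, and Spib was highest in mutant replicate 2. How far cells of the B lineage within the HSPC samples account for these levels was not tested.

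Transcription factors of the B lineage were higher in B cells, with 20 of 24 called higher, none lower and a median log2 change of 2.37. PAX5 marks commitment, and Pax5 stood at 1383 and 1527 CPM in mutant B cells and 1129 and 1177 CPM in WT B cells, against 221 and 121 CPM in mutant HSPCs and 61.3 and 102 CPM in WT HSPCs. Its log2 change of 3.53 ± 0.29 was smaller than those of Spib (6.79 ± 0.17), Ikzf3 (6.47 ± 0.18), Klf2 (5.61 ± 0.21), Irf4 (4.81 ± 0.15) and Bach2 (4.63 ± 0.17). Ikzf3, which encodes Aiolos, was at 728 and 790 CPM in mutant B cells and 561 and 573 CPM in WT B cells, against 10.3 and 7.17 CPM in mutant HSPCs and 5.52 and 8.35 CPM in WT HSPCs. Ebf1 (2.59 ± 0.28), Foxo1 (2.62 ± 0.18) and the coactivator Pou2af1 (3.73 ± 0.29) lay in between, and the E protein Tcf3 (1.40 ± 0.12) and Ikzf1 (1.01 ± 0.10) changed less. Spi1, Bcl11a, Lef1 and Mef2c were not called, with estimates from -0.05 to 0.27. Mef2b was called at 3.38 ± 1.22, but it was under 2 CPM in every library, the groups overlapped and 6 of the 8 leave-outs lost the call, with estimates from 2.65 to 3.72.

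Markers of B cell maturation had the largest median of the 23 gene lists, 3.02, with 16 of 18 members called higher and 2 lower. Besides Ms4a1, the complement receptor Cr2 was at 23.96 and 22.3 CPM in mutant B cells and 18.2 and 23.5 CPM in WT B cells, against no count in 3 HSPC libraries and 0.114 CPM in the other, WT replicate 1. Fcer2a (7.47 ± 0.68), Cd40 (6.69 ± 0.31), Cd38 (5.53 ± 0.23), the receptor for the survival factor BAFF Tnfrsf13c (5.27 ± 0.18) and the chemokine receptor Ccr7 (4.02 ± 0.18) followed. Genes of earlier stages were higher by less, such as Cd24a (1.91 ± 0.20) and Cd93 (0.77 ± 0.10). Spn, which encodes CD43, a protein of progenitors and early B cells, was lower, at 128 and 119 CPM in mutant B cells and 161 and 149 CPM in WT B cells, against 654 and 774 CPM in mutant HSPCs and 748 and 714 CPM in WT HSPCs (-2.30 ± 0.10). Across the B lineage genes called higher in these 4 lists, 71 of 87 members, the ratio of mean CPM of B cells to HSPCs was over 100 for 6, from 10 to 100 for 21 and under 10 for 44.

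The immunoglobulin genes did not follow 1 pattern, and the members named here were chosen after their values were seen. Together with Jchain they made up 1.56% to 1.89% of a B cell library and 0.848% to 1.86% of an HSPC library, where WT replicate 2 held the highest share. The IgM heavy chain gene Ighm was at 9133 and 10740 CPM in mutant B cells and 9089 and 8439 CPM in WT B cells, against 2512 and 4565 CPM in mutant HSPCs and 4262 and 7851 CPM in WT HSPCs (1.10 ± 0.32, edgeR adjusted p = 0.0254). Ighd, used with Ighm by mature naive B cells, stood at 395 and 410 CPM in mutant B cells and 275 and 336 CPM in WT B cells, against 12.6 and 6.598 CPM in mutant HSPCs and 8.81 and 7.81 CPM in WT HSPCs (5.37 ± 0.20). The kappa constant region Igkc overlapped, with 1831 to 2627 CPM in B cells and 1698 to 2257 CPM in HSPCs (adjusted p = 0.127). The lambda gene Iglc1 was at 8.88 and 13.1 CPM in mutant HSPCs and at 32.1 and 1482 CPM in WT HSPCs, so that WT replicate 2 lay above all 4 B cell libraries, which held 498 to 913 CPM. Jchain, which joins secreted IgM and IgA, was at 22.9 and 39.5 CPM in mutant B cells and 207 and 28.01 CPM in WT B cells, against 530 and 473 CPM in mutant HSPCs and 389 and 979 CPM in WT HSPCs. Its call (-3.19 ± 0.83, adjusted p = 0.0238) was lost in 5 of the 8 leave-outs, those of HSPC WT replicate 2 and of all 4 mutant libraries, with estimates from -3.15 to -2.89. Of the 12 plasma cell genes, 6 were called higher and 3 lower. Slamf7 (3.41 ± 0.24) and the secretory pathway gene Herpud1 (2.08 ± 0.10) were higher and Fkbp11 (-3.33 ± 0.34) was lower. The regulator Prdm1 was at 3.58 to 5.17 CPM in B cells and 2.37 to 4.16 CPM in HSPCs (adjusted p = 0.156).

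Genes of antigen presentation by MHC class II were higher in B cells, with 12 of 14 members called higher, none lower and a median log2 change of 1.62. The list took 0.283% to 0.348% of the counts in B cells and 0.0567% to 0.0885% in 2-week HSPCs. This order did not hold against all HSPCs of the series. The untreated and doxorubicin-treated libraries held 0.105% to 0.151%, but those of 20 weeks held 0.373% to 0.509%, above the B cell libraries. The invariant chain Cd74 was at 1310 and 1679 CPM in mutant B cells and 1400 and 1449 CPM in WT B cells, against 129 and 243 CPM in mutant HSPCs and 184 and 261 CPM in WT HSPCs (2.93 ± 0.21). Ciita, the coactivator that switches on the class II genes, changed by 3.04 ± 0.17 and the peptide-exchange subunit H2-DMb2 by 4.58 ± 0.31, while the class II chains H2-Aa (1.74 ± 0.11), H2-Ab1 (1.59 ± 0.14) and H2-Eb1 (1.66 ± 0.10) moved alike. H2-DMa, at 45.4 to 57.5 CPM in B cells and 42.8 to 103 CPM in HSPCs, was not called.

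Transcription factors of stem and progenitor cells were lower in B cells. Of 30 members, 23 were called lower and 3 higher, with a median log2 change of -2.64. Mecom, a regulator of long-term stem cells, was at 0.117 and 0 CPM in mutant B cells and 0.120 and 0.0197 CPM in WT B cells, against 17.3 and 18.0 CPM in mutant HSPCs and 19.3 and 24.8 CPM in WT HSPCs (-8.12 ± 0.55). Gata2 (-5.11 ± 0.17), Meis1 (-4.83 ± 0.37), Hoxa9 (-4.73 ± 0.72), Hoxa7 (-4.35 ± 0.27) and Prdm16 (-4.26 ± 0.41) followed. Hoxa10 (-4.44 ± 1.39) kept its direction but not its call without mutant HSPC replicate 1 (-4.24) or mutant B cell replicate 1 (-3.97). Erg (-2.96 ± 0.32) and Lmo2 (-1.96 ± 0.13) were lower but remained above 10 CPM in all 4 B cell libraries. The members higher in B cells were Sox4 (0.91 ± 0.12), Myb (0.90 ± 0.11) and Fli1 (0.77 ± 0.11), of which Myb and Sox4 are also known to act in early B cells. Lyl1, Gfi1, Zfpm1 and Hhex were not called, with estimates from -0.07 to 0.

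Receptors and surface genes of stem and progenitor cells were lower as well, with 18 of 24 called lower, 2 higher and a median of -2.93. Tek, the angiopoietin receptor TIE2, had no count in any of the 4 B cell libraries, against 11.7 and 16.9 CPM in mutant HSPCs and 12.6 and 11.5 CPM in WT HSPCs. Tie1, Procr and Esam were at most 0.120 CPM in every B cell library. Flt3, a receptor of lymphoid-primed progenitors, was at 7.04 and 10.4 CPM in mutant B cells and 16.2 and 19.5 CPM in WT B cells, against 189 and 283 CPM in mutant HSPCs and 244 and 259 CPM in WT HSPCs (-4.19 ± 0.25). Ly6a, which encodes Sca-1, differed by much less than Kit, at 15.4 and 16.8 CPM in mutant B cells and 28.8 and 29.4 CPM in WT B cells, against 38.9 and 30.8 CPM in mutant HSPCs and 41.1 and 48.0 CPM in WT HSPCs (-0.78 ± 0.15). The 12 other HSPC libraries of the series held 142 to 484 CPM of Ly6a. All 4 HSPC libraries of 2 weeks thus lay below them, nearer to the B cell libraries. The members called higher were Csf2ra (1.27 ± 0.23) and Csf2rb2 (1.12 ± 0.16), chains of cytokine receptors, of which Csf2rb2 has a near-identical neighbour in Csf2rb, so that reads may be split between them.

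Megakaryocyte and platelet genes were on the HSPC side, with 11 of 16 tested members called lower, 1 higher and the lowest median of the lists, -3.65. Itga2b, which encodes CD41, was at 5.99 and 3.78 CPM in mutant B cells and 9.08 and 8.82 CPM in WT B cells, against 70.5 and 99.2 CPM in mutant HSPCs and 189 and 132 CPM in WT HSPCs. Pf4 (-4.98 ± 0.35), Gp5 (-5.15 ± 0.36) and Selp (-5.13 ± 0.38) moved likewise. Mmrn1 (-3.70 ± 0.88) lost its call without mutant B cell replicate 1 (-3.82). Itgb3, an integrin chain that other leukocytes use too, was higher in B cells (1.67 ± 0.15).

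Genes of the primary granules, made at the promyelocyte stage, were lower in B cells in 11 of 15 cases and higher in 2, with a median of -1.18. Mpo, encoding myeloperoxidase, was at 121 and 64.8 CPM in mutant B cells and 138 and 97.5 CPM in WT B cells, against 2206 and 5257 CPM in mutant HSPCs and 4120 and 3979 CPM in WT HSPCs, a log2 change of -5.12 ± 0.36. The 12 other HSPC libraries held 122 to 177 CPM of Mpo, a range that the B cell libraries overlapped. Prtn3 (-4.22 ± 0.44), Ctsg (-3.99 ± 0.25) and Elane (-3.77 ± 0.46), serine proteases of the same granules, shared the direction. In Prtn3 and Elane, too, the 2-week HSPC libraries lay above the other HSPC libraries, which reached 89.7 and 23.5 CPM, while the 2-week HSPC libraries held at least 241 and 245 CPM.

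RNA of late neutrophils and of red cells was present in both cell types. The late neutrophil list took 0.401% to 1.42% of the counts in B cells and 0.129% to 0.421% in HSPCs. The cell types overlapped, since B cell mutant replicate 2, the lowest B cell library, lay below HSPC mutant replicate 2. Of its 18 members, 9 were called higher in B cells and none lower, with a median of 1.82. The number called was 17 without the count filter and 6 without HSPC WT replicate 2. Retnlg was at 266 and 130 CPM in mutant B cells and 277 and 451 CPM in WT B cells, against 5.95 and 19.3 CPM in mutant HSPCs and 2.92 and 14.9 CPM in WT HSPCs (4.76 ± 0.82). S100a9, a subunit of calprotectin, was called at 2.15 ± 0.65, a call lost without any 1 of 6 libraries (1.83 to 2.31), that is, all but HSPC WT replicate 1 and B cell mutant replicate 2. Ly6g was called at 2.20 ± 0.61 and lost its call without HSPC WT replicate 2 (2.03). The erythroid list took 0.893% to 2.26% of the counts in B cells and 0.299% to 0.449% in HSPCs without overlap, with 13 of 19 members called higher, 3 lower and a median of 1.42. The beta-globin gene Hbb-bs, whose reads may be shared with Hbb-bt, was at 5633 and 2832 CPM in mutant B cells and 8196 and 4410 CPM in WT B cells, against 129 and 482 CPM in mutant HSPCs and 61.9 and 383 CPM in WT HSPCs. Genes of late red cells were higher, Alas2, the first enzyme of heme synthesis, by 4.64 ± 0.84 and the band 3 anion exchanger Slc4a1 by 3.86 ± 0.87. The early genes Klf1 (-1.07 ± 0.26) and Car1 (-3.79 ± 0.24) were lower in B cells. Their part in the other results was not tested. The libraries labelled T cells of the same time held 15.3% to 17.4% in the late neutrophil list and were not used for the comparison.

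Genes of T and NK cells were low. The list took 0.0297% to 0.0377% of the counts in B cells and 0.0166% to 0.0237% in HSPCs, with 11 of 20 members called higher and 4 lower. Cd3e, which encodes a signalling subunit of the T cell receptor complex, was at 0.388 to 1.90 CPM in B cells and 0.229 to 1.53 CPM in HSPCs. It was not called. Cd8b1 had no count in the HSPC libraries and 0.350 to 3.52 CPM in B cells, at least 18.0-fold higher in the mean than a floor of 3 counts per HSPC library. The granzyme Gzma was at 44.2 and 49.3 CPM in mutant B cells and 61.7 and 53.2 CPM in WT B cells, against 1.29 CPM in both mutant HSPC libraries and 1.92 and 3.04 CPM in WT HSPCs. Cd2, which mouse B cells also express, was the most abundant member in B cells. Of 20 genes of monocytes, macrophages and dendritic cells, 3 were called higher and 10 lower. The largest increase was that of Siglech (4.58 ± 0.24), a lectin of plasmacytoid dendritic cells, and the largest decreases were those of Xcr1 (-5.00 ± 0.85), the chemokine receptor of cross-presenting dendritic cells, and Cd163 (-2.31 ± 0.31).

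Growth-related genes were lower in B cells. All 25 genes of ribosome biogenesis were called lower, with a median of -1.68. Myc, the transcription factor that drives this programme, was at 25.7 and 23.5 CPM in mutant B cells and 33.9 and 26.9 CPM in WT B cells, against 251 and 332 CPM in mutant HSPCs and 372 and 308 CPM in WT HSPCs (-3.43 ± 0.12). Rrp12 (-2.18 ± 0.11), Polr1b, a subunit of RNA polymerase I (-2.09 ± 0.12) and nucleolin, Ncl (-1.94 ± 0.16), followed. The 12 other HSPC libraries held 149 to 316 CPM of Myc, above all 4 B cell libraries. The ribosome biogenesis list took 0.267% to 0.291% of the counts in B cells and 0.909% to 1.154% in 2-week HSPCs. In the 12 other HSPC libraries it took 0.399% to 0.668%, above the B cells but below the 2-week HSPCs. Of 20 glycolysis genes, 15 were called lower and none higher, with a median of -1.37, led by Ldhb (-3.05 ± 0.44), Pfkm (-2.45 ± 0.11), Hk1 (-2.33 ± 0.12) and Pfkl (-2.17 ± 0.16). Ldha, which makes lactate, was at 205 and 187 CPM in mutant B cells and 262 and 229 CPM in WT B cells, against 843 and 974 CPM in mutant HSPCs and 1097 and 971 CPM in WT HSPCs (-2.05 ± 0.10). The share of the glycolysis list was 0.200% to 0.252% in B cells and 0.515% to 0.678% in 2-week HSPCs. The 12 other HSPC libraries again lay in between, at 0.296% to 0.436%.

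Cell cycle genes were described by phase. Of 35 genes of G1 and S phase, 20 were called lower and 3 higher in B cells, with a median of -0.72. They took 0.525% to 0.689% of the counts in B cells and 0.963% to 1.075% in 2-week HSPCs. The 12 other HSPC libraries held 0.4895% to 0.784%, a range within which the B cell libraries lay. Of 30 genes of G2 and M phase 14 were called higher and none lower, and 16 were not called, with a median of 0.28. The G2 and M phase genes took 0.694% to 0.878% of the counts in B cells and 0.524% to 0.778% in HSPCs, so that the cell types overlapped. The 12 other HSPC libraries held 0.232% to 0.591%, below the B cell libraries. The 2 lists were not tested against each other. Cdk6, the partner of the D cyclins, was at 94.9 and 77.9 CPM in mutant B cells and 90.2 and 69.2 CPM in WT B cells, against 662 and 669 CPM in mutant HSPCs and 684 and 680 CPM in WT HSPCs (-2.93 ± 0.12). Ccnd1 (-2.04 ± 0.16) and Cdk4 (-1.51 ± 0.10) were lower and Ccnd3, the D cyclin that pre-B cells depend on, higher (0.86 ± 0.17). Components of the replicative helicase were lower by similar amounts, from Mcm6 (-1.30 ± 0.11) and Mcm2 (-1.25 ± 0.11) to Mcm7 (-0.88 ± 0.10). Among mitotic genes Kif23 (1.10 ± 0.12) and Cenpa (1.06 ± 0.10) changed most. Mki67 was at 2341 and 1770 CPM in mutant B cells and 2269 and 1946 CPM in WT B cells, against 1981 and 1271 CPM in mutant HSPCs and 910 and 1334 CPM in WT HSPCs (0.71 ± 0.21), with mutant HSPC replicate 1 inside the B cell range. Of 26 genes of homologous recombination, 14 were called lower and 4 higher, with a median of -0.46. Their share was 0.106% to 0.122% in B cells and 0.154% to 0.183% in 2-week HSPCs. In the 12 other HSPC libraries it was 0.0835% to 0.149%, a range within which the B cell libraries lay. Nbn (-1.39 ± 0.18), Exo1 (-1.26 ± 0.12) and Brca2 (-1.04 ± 0.13) were lower and Rad51c (1.18 ± 0.20) higher. The number called higher was 2 without mutant HSPC replicate 2 or mutant B cell replicate 1.

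Of the 16 BCL2 family genes tested, which set cell survival, 5 were called higher and 6 lower, with a median of -0.31, beside 26.7% and 27.3% of all genes. Bcl2, the founding survival gene, was at 19.8 and 17.7 CPM in mutant B cells and 17.5 and 13.1 CPM in WT B cells, against 92.7 and 115 CPM in mutant HSPCs and 102 and 106 CPM in WT HSPCs (-2.53 ± 0.13). Its relative Bcl2l1, encoding BCL-XL, was at 205 and 214 CPM in mutant B cells and 230 and 166 CPM in WT B cells, against 42.0 and 32.4 CPM in mutant HSPCs and 25.9 and 35.3 CPM in WT HSPCs (2.68 ± 0.15). The pro-apoptotic Bmf was higher in B cells (4.04 ± 0.20) and so was Mcl1 (1.68 ± 0.10). Of 18 homing and adhesion receptors, 7 were called in each direction, with a median of -0.09, beside the same shares of all genes. Cxcr4, which retains cells in the marrow, was at 484 and 491 CPM in mutant B cells and 495 and 514 CPM in WT B cells, against 115 and 128 CPM in mutant HSPCs and 135 and 130 CPM in WT HSPCs (2.05 ± 0.09). S1pr1, which guides exit into blood, was higher by 3.28 ± 0.23. The junctional adhesion molecule Jam3 (-8.47 ± 1.46) and the integrin chains Itgb1 (-1.73 ± 0.11) and Itga6 (-1.34 ± 0.12) were lower.

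The SRCAP complex and H2A.Z genes did not move as 1 group. Of 13 members, 4 were called higher and 4 lower, beside 26.7% and 27.3% of all genes. The median of -0.07 was 0.03 without mutant HSPC replicate 1 or mutant B cell replicate 2. The shared helicase subunits Ruvbl1 (-1.52 ± 0.13) and Ruvbl2 (-1.57 ± 0.13) and the subunit Znhit1 (-0.66 ± 0.16) were lower in B cells. Of the H2A.Z genes, H2afv was at 176 and 196 CPM in mutant B cells and 203 and 226 CPM in WT B cells, against 92.8 and 117 CPM in mutant HSPCs and 117 and 113 CPM in WT HSPCs (0.95 ± 0.09). H2afz overlapped, with 250 to 331 CPM in B cells and 284 to 372 CPM in HSPCs (adjusted p = 0.257). Of 20 interferon response genes, 11 were called higher and 4 lower, with a median of 0.78, led by Rsad2 (3.44 ± 0.49), Ifit3 (2.74 ± 0.76) and Mx1 (2.71 ± 0.29), with Ifi44 (-2.24 ± 0.31) lowest.

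**Figure D4:**
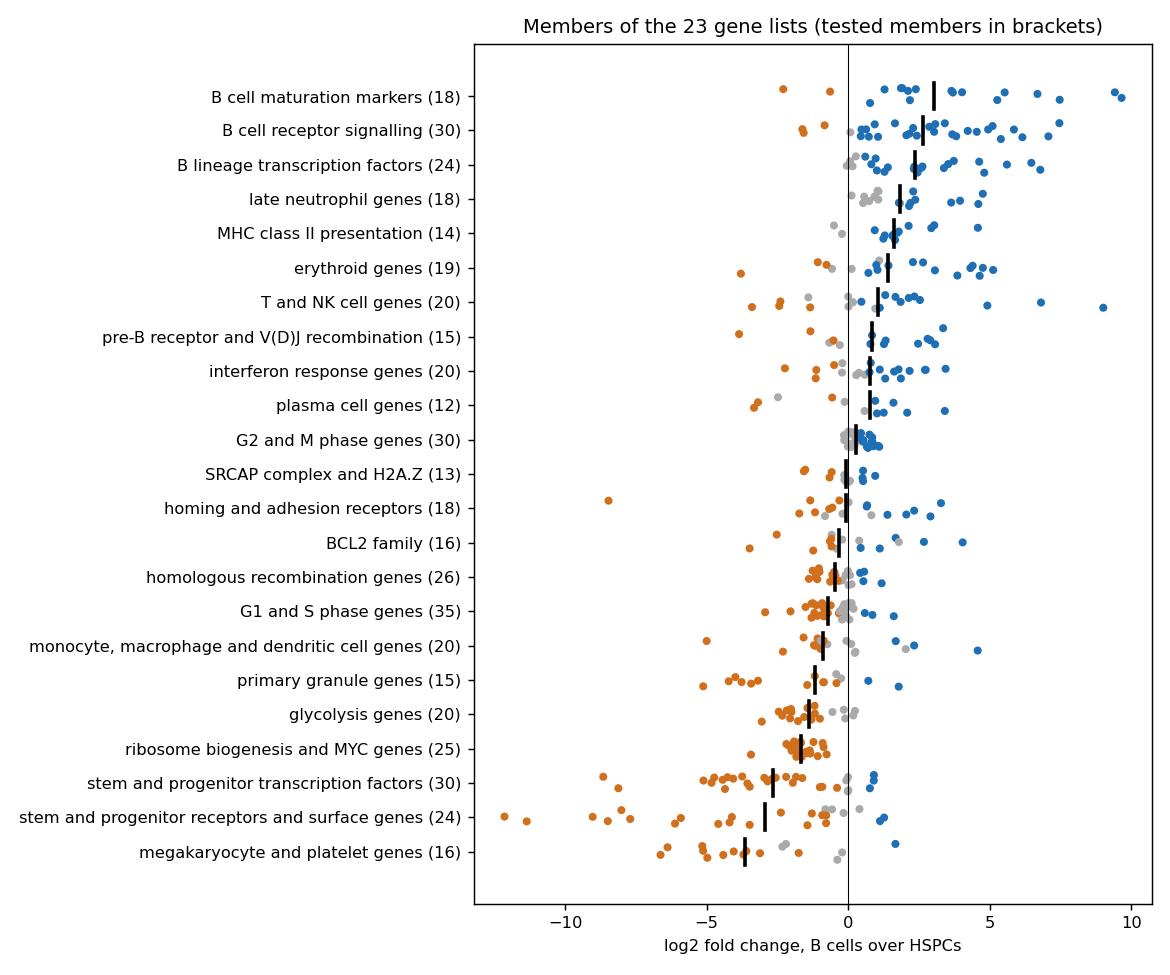
Log2 fold changes of B cells over HSPCs for the tested members of 23 gene lists, 1 point per gene, blue where called higher in B cells, orange where called lower and grey where not called, with a black bar at each median. Medians run from 3.02 for B cell maturation markers to -3.65 for megakaryocyte and platelet genes, and all 25 ribosome biogenesis genes lie left of 0.

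The difference between the cell types was measured separately in mutants and in WT, which share no libraries. In mutants 7936 genes (43.6%) were called, 4041 higher and 3895 lower in B cells, and in WT 6897 genes (37.9%), 3337 higher and 3560 lower. Called in both were 6030, which is 76.0% of the calls in mutants and 87.4% of those in WT, and 6029 of these had the same direction. Of the genes called in WT, 99.4% had the same direction in mutants whether called there or not, against 84.7% of all genes tested. Among the medians of the lists were 2.61 in mutants and 2.76 in WT for B cell receptor signalling, -2.47 in mutants and -2.54 in WT for stem and progenitor transcription factors, and -1.76 in mutants and -1.69 in WT for ribosome biogenesis genes. Other lists lay farther apart. The late neutrophil median was 1.09 in mutants and 2.41 in WT, and that of T and NK cell genes 0.39 in mutants and 1.65 in WT. The median was -0.89 in mutants and -0.46 in WT for G1 and S phase genes, and 0.11 in mutants and 0.50 in WT for G2 and M phase genes. It was -1.16 in mutants and -0.55 in WT for the monocyte, macrophage and dendritic cell genes, and 0.99 in mutants and 0.55 in WT for the plasma cell genes. The SRCAP complex and H2A.Z genes had a median of -0.17 in mutants and 0.02 in WT. The lists were not tested for these differences.

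The test of the difference itself, mutant effect minus WT effect, called 3 genes (0.0165%) in edgeR, while 1118 passed an unadjusted p of 0.05. DESeq2 called 64. Without mutant HSPC replicate 1 or 2 edgeR called 24 or 93, without WT HSPC replicate 1 or 2 it called 20 or 8, and without any 1 B cell library 2. All 3 genes called from all 8 libraries are immunoglobulin variable segments that were near 0 in WT HSPCs. The lambda segment Iglv2 was at 111 and 105 CPM in mutant B cells and 74.2 and 114 CPM in WT B cells, and at 38.1 and 54.5 CPM in mutant HSPCs against 0.0858 and 0.203 CPM in WT HSPCs. Its cell type effect was 1.32 in mutants and 9.33 in WT, a difference of -8.01 ± 0.44 (edgeR adjusted p = 2.16e-05). The kappa segment Igkv9-120 had 33.7 and 41.6 CPM in mutant B cells and 27.8 and 33.7 CPM in WT B cells, and 18.9 and 14.8 CPM in mutant HSPCs against 0.0572 and 0 CPM in WT HSPCs (-8.91 ± 0.61, adjusted p = 9.24e-05). For Igkv4-55 the values were 7.66 and 10.05 CPM in mutant B cells, 5.78 and 6.29 CPM in WT B cells, 122 and 40.4 CPM in mutant HSPCs and 0 and 0.0450 CPM in WT HSPCs, and its call (-10.94 ± 1.05, adjusted p = 0.0420) was lost in 6 of 8 leave-outs, with estimates from -14.22 to -10.16, that is in every one but those of the mutant HSPC libraries. Reads of such segments can be shared between similar segments. No gene of the B lineage lists or the stem and progenitor lists was called for this difference. With 0.0165% of all genes called, lists of this size would mostly hold no call. The absence therefore does not show that these lists are alike in the genotypes.

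**Figure D5:**
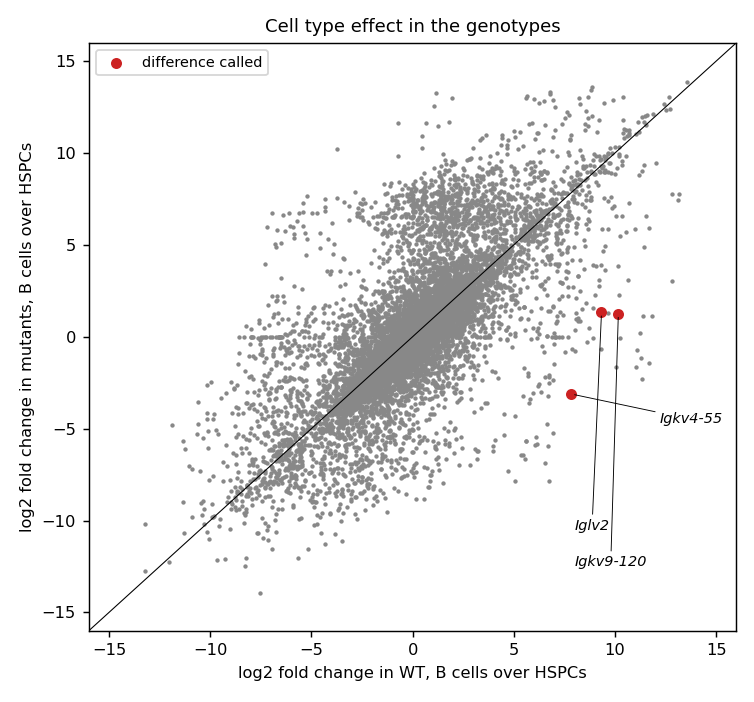
Log2 fold change of B cells over HSPCs in mutants (vertical axis) against that in WT (horizontal axis) for the 18203 genes tested, 1 point per gene, with the line of equal effects. The 3 genes in red, Iglv2, Igkv9-120 and Igkv4-55, are those called for the difference between the genotypes, and all lie below the line.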

How the data were processed

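Raw fragment counts per gene were deposited by the authors, 1 file per library. Per the file headers they were made with featureCounts 2.0.1 in paired mode with strand setting 2 on the GENCODE M28 annotation, and per the labels' protocols libraries came from a stranded mRNA kit. FastQC, STAR, Subread and the builds mm39 and mm10 are named in the submitters' processing notes. Symbols, from GENCODE M21, were found for 52081 of 55414 gene IDs, which held 99.85% of counts.

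The 8 libraries were fitted with edgeR 4.0.16 in R 4.3.3 (quasi-likelihood test, robust, TMM scaling, genotype and cell type as terms), keeping genes by filterByExpr (minimum count 10, minimum total 15). A fit of the 4 groups gave the effects in mutants and in WT and their difference. A gene is called where its p, adjusted by Benjamini-Hochberg over all 18203 genes tested, was under 0.05. Each SE was derived from the log2 fold change and its F statistic. CPM are counts over the library's total times 1e6, without TMM scaling. The alternatives used DESeq2 1.42.0, other scaling, no count filter, replicate blocks, 1 library left out, other sets of libraries or genes, and a test against 2-fold.

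Members and gene lists were chosen with earlier results of these data known. Genes named were the markers and Srcap, the 15 largest called changes in each direction whose average log2 CPM reached 4, with no overlap of the cell types (gene models, receptor segments and mitochondrial genes left out), up to 8 members of each list, largest called changes first, and called differences between genotypes. List members named beyond these, with the not called members, were chosen after their values were seen. Some genes that the rule would name are not reported here, and counts over lists include them.

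In simulated data with 200 changed genes, 71% of 2-fold and 90% of 4-fold changes were called among 17177 genes, with 12 false calls. For the difference between genotypes these were 17% and 66% among 17189 genes, with 13 false calls. The changed genes were drawn from those above a minimum level, and far fewer changed than the 9818 called between the cell types. The shares called in the first simulation therefore do not carry over to the real comparison of the cell types.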

Additional observations from a re-analysis of the deposited data

Results flagged for a closer look

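A single library stood apart from the other 3 of its cell type in 4 of 56 sets of 4 values looked at, by a gap that chance gives in about 1 of 20 sets. Late neutrophil genes took 0.129% of the counts in HSPC WT replicate 1, against 0.392% to 0.421% in the other HSPC libraries. Ribosome biogenesis genes took 1.15% in HSPC mutant replicate 1, against 0.909% to 0.926%. Immunoglobulin genes and Jchain took 1.86% in HSPC WT replicate 2, against 0.848% to 1.01%. Homologous recombination genes took 0.106% in B cell mutant replicate 2, against 0.120% to 0.122% in the other B cell libraries.

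The cell type effect differed between mutants and WT, by edgeR's test of the difference itself, for the immunoglobulin segments Iglv2 (-8.01, log2), Igkv9-120 (-8.91) and Igkv4-55 (-10.94). WT HSPCs held at most 0.203 CPM of any of these, so the fitted sizes depend on the small count that edgeR adds.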

How the results depend on the processing

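The count of genes called between B cells and HSPCs stayed within 1.5 times of 9818 with DESeq2 (10572), with RLE size factors, without the count filter, without immunoglobulin genes, with all 12 libraries of 2 weeks and over the leave-outs of 1 library (8611 to 9791), and no shared call changed sign. A test against a 2-fold change called 3834 genes, 1929 higher and 1905 lower in B cells. Deviations of same-numbered samples showed no correlation (0.01 in mutants and -0.02 in WT), and the labels name no animals. A replicate block called 9186 genes, 4549 higher and 4637 lower. The headers number some libraries otherwise, and a replicate block from header numbers, chosen after seeing the data, called 5909, 2896 higher and 3013 lower. By those numbers only the libraries numbered 1 have a partner of the other cell type in their genotype. The other libraries therefore do not inform the cell type effect in that fit. Scaling by total counts alone, also chosen after seeing the data, moved the median of all genes to -0.08 and left 45.0% of calls higher, against 49.4%. Leave-outs called 5996 to 7963 genes in mutants and 4963 to 7958 in WT. The difference between genotypes was called for 64 genes by DESeq2, 278 without the count filter, 7 with the replicate block, and 2 to 93 over the leave-outs, and the cause was not tested. Of 204 called genes followed singly, 154 kept call and direction in every alternative and none changed sign. The test against 2-fold ended the most calls, 42 of the 204. The replicate block ended the calls of 7 of them, Srcap, Jchain, Ifitm6, Ly6g, S100a9, Slc4a1 and Oas2. The block from header numbers ended those of 22, namely Srcap, Mef2b, Jchain, Ly6g, S100a9, Slc4a1, Oas2, Col5a3, Fcer2a, Dntt, Hba-a2, Alas2, Bcl11b, Trac, Vcam1, Pmaip1, Znhit1, Actb, Yeats4, Rad51b, Rad51d and Ifit3. The late neutrophil list had 6 members called higher with the replicate block, against 9. With 2 libraries a group, the precision rests on the spread shared by the groups.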

Other observations

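The X-linked RNA Xist, chosen after its values were seen, ran from 1476 to 1537 CPM among B cell libraries and from 545 to 1339 CPM among 2-week HSPC libraries. The 12 other HSPC libraries of the series held 0 to 0.484 CPM. They thus differed from the 8 libraries compared here in Xist as well as in condition and alignment directory. How far this bears on the comparisons with them above was not tested. In those 12 libraries the immunoglobulin share, Jchain included, was 2.43% to 26.7%, above all 8 libraries compared here.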
